A study of Homo sapiens with 3 samples.

Results

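The 40 genes described here encode the proteins that license replication origins and build the replication fork. They were chosen by name, as the rows of the deposited gene tables that carry these symbols on the assembled chromosomes, and all 40 were found among 39320 such rows. RNA was sequenced in 3 libraries labelled HepG2 rep1 to rep3, with genotype WT. HepG2 is an established line of human liver cancer cells. Per the labels the libraries were made from poly(A) RNA of this line, and the labels give no treatment or second genotype, so 1 condition was measured. The labels do not say whether the replicates came from separate cultures, so the spread between them may be technical.

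Before S phase, the origin recognition complex marks origins, and CDC6 and CDT1 load the MCM2-7 helicase onto DNA there. When S phase begins, CDC45 and the GINS complex join the helicase and open the fork. PCNA, placed by the RFC clamp loader, then holds the polymerases on DNA, while RPA covers single strands and FEN1 and LIG1 join the fragments of the lagging strand. Many of these genes are known targets of E2F, the transcription factor of the transition into S phase.

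Levels are given as TPM, a measure of RNA that is scaled for gene length and to an equal total per library. Genes can therefore be compared by TPM, although the depth behind a value is unknown. Coverage per FPKM rises with depth, and its highest value in a library, relative to that of replicate 3, was 1.16 in replicate 1 and 1.12 in replicate 2. The label was checked against 11 genes for secreted hepatocyte proteins, which HepG2 is known to express. All 11 were below 1 TPM in the 3 libraries, and 8, ALB and APOA1 among them, were listed at 0 in each. These markers go against the label, and every value below is that of the libraries labelled HepG2, whatever cells they hold. The replication genes were present throughout. All 40 had at least 1 TPM in every library, as did 59.5% of RefSeq protein-coding genes. At least 10 TPM was reached in every library by 38 of the 40, beside 40.4% of protein-coding genes and 20.7% of all gene rows. The median of their mean TPM was 50.5, and the median percentile among 13753 genes averaging 1 TPM or more was 78.4. The members spanned a 58.8-fold range of mean TPM, from MCM9 to MCM7.

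**Figure D1:**
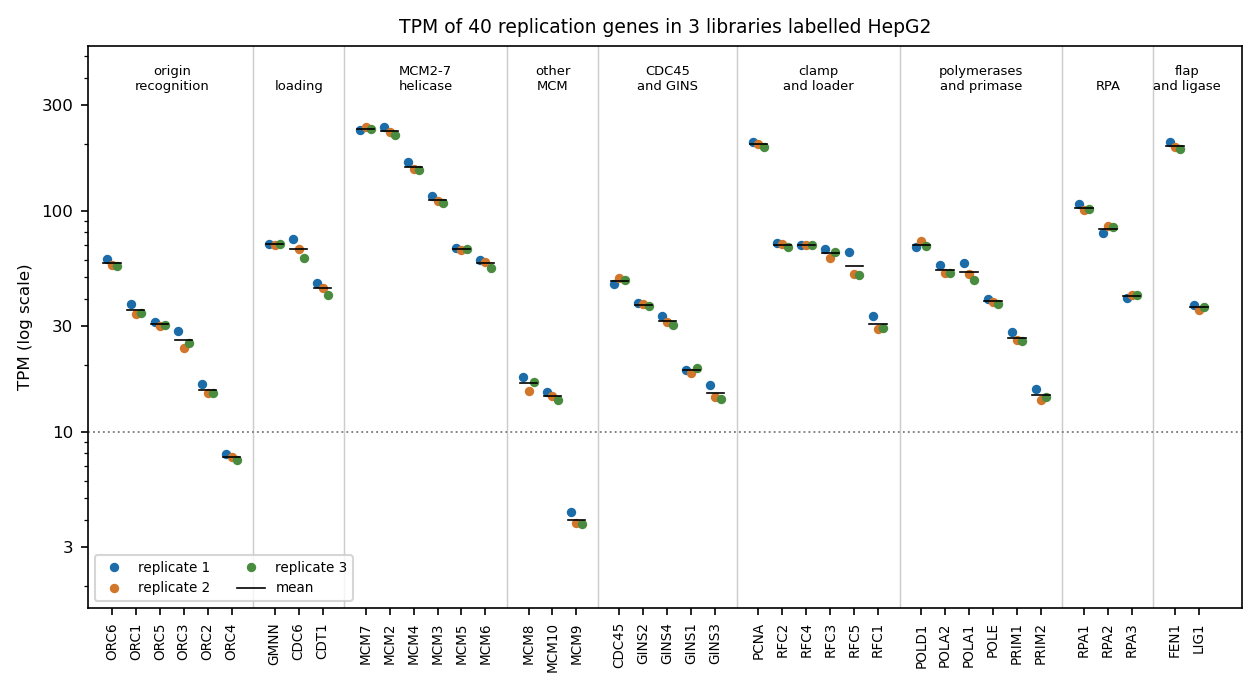
TPM on a log axis for 40 replication genes, grouped by role and ordered by mean within a role, with a point for each of the 3 libraries, a line for the mean and a dotted line at 10 TPM. MCM7, MCM2, PCNA and FEN1 lie highest, and only ORC4 and MCM9 lie under the dotted line, in all 3 libraries.

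The origin recognition genes were spread over a 7.55-fold range. ORC6, the smallest subunit, was the highest with 60.7, 56.6 and 56.5 TPM in replicates 1, 2 and 3 (57.9 ± 2.43, SD, n = 3). ORC1, the subunit whose protein is destroyed during S phase in human cells, had 38.0, 34.3 and 34.6 TPM. ORC4, an ATPase-fold subunit of the ring, had 7.89, 7.68 and 7.44 TPM (7.67 ± 0.229, SD, n = 3). No library of ORC4 came near any library of ORC6. Between them lay ORC5 with a mean of 30.6 TPM, ORC3 with 25.9 TPM and ORC2, which had 16.5, 15.0 and 14.9 TPM. The log2 ratio of ORC1 to ORC2 was 1.15 ± 0.01 (SD, n = 3) on the log2(TPM + 1) scale. The TPM values over the libraries did not overlap between any neighbours in this order, although the proteins act in 1 complex.

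Of the loading factors, GMNN encodes geminin, which binds CDT1 and blocks further loading. GMNN had 70.8, 69.9 and 70.5 TPM in replicates 1, 2 and 3 (70.4 ± 0.424, SD, n = 3). CDT1 had 47.3, 44.8 and 41.4 TPM (44.5 ± 2.96, SD, n = 3). By TPM the inhibitor was thus above its target in each library, with a log2 ratio of CDT1 to GMNN of -0.65 ± 0.09 (SD, n = 3) on the log2(TPM + 1) scale. By the deposited coverage, which is the mean read depth over the gene, the ratio turned to 1.65. CDC6, the ATPase that recruits CDT1 and the helicase, had 74.4, 66.8 and 61.0 TPM (67.4 ± 6.70, SD, n = 3), and its libraries overlapped those of GMNN but lay above those of CDT1, with a log2 ratio of CDC6 to CDT1 of 0.58 ± 0.05 (SD, n = 3).

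The MCM2-7 helicase genes were the most abundant role group by summed level, at 859 ± 22.9 TPM (SD, n = 3) out of 2610.7 ± 78.1 TPM for all 40 genes. MCM7 had 233, 239 and 234 TPM in replicates 1, 2 and 3 (235 ± 3.58, SD, n = 3). MCM2 had 239, 228 and 220 TPM (229 ± 9.53, SD, n = 3). These subunits were the highest of all 40 genes by TPM, and their libraries overlapped. MCM4 followed with a mean of 158 TPM and MCM3 with 112 TPM. MCM5 had 67.8, 66.7 and 66.9 TPM (67.2 ± 0.599, SD, n = 3), and MCM6 had 59.9, 58.9 and 55.4 TPM (58.0 ± 2.38, SD, n = 3). The helicase holds 1 copy of each subunit, yet by TPM MCM7 was 4.05 times as high as MCM6, and from MCM2 downward no neighbours overlapped.

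MCM7 also hosts a cluster of microRNA genes in its introns. The deposited tables hold separate rows for them within the MCM7 row (GRCh38, chromosome 7, 100092728 to 100101940, minus strand). The mature sequences from RefSeq (GRCh38.p14) are shown with the seed, bases 2 to 8, in capitals, because MCM7 transcription runs through them.
hsa-miR-106b-5p: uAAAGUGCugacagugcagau
hsa-miR-93-5p: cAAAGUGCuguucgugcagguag
hsa-miR-25-3p: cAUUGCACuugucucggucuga
The first and the middle one share a seed. The 84 bp row of MIR25 had 17.7, 20.6 and 21.8 TPM in the same order of replicates, MIR93 had a mean of 2.79 TPM and MIR106B one of 2.12 TPM. All were under 10% of the level of the host MCM7. These rows count poly(A) RNA over the precursor, so reads of unspliced MCM7 RNA and of the precursors cannot be told apart, and the mature microRNAs were not measured.

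The remaining MCM genes lay far below the helicase. MCM8 had 17.6, 15.2 and 16.7 TPM in replicates 1, 2 and 3 (16.5 ± 1.22, SD, n = 3), and MCM9, its partner in a helicase known from DNA repair, had 4.33, 3.87 and 3.81 TPM (4.0 ± 0.285, SD, n = 3). MCM9 was the lowest of the 40 genes by TPM. MCM10, which acts when the helicase is activated, had a mean of 14.5 TPM. Summed, these genes had 35.1 ± 1.89 TPM (SD, n = 3), beside 859 TPM for MCM2 to MCM7. The row of MCM9 overlaps the opposite-strand gene ASF1A over 15020 bp. ASF1A had a mean of 18.0 TPM, and because the strand setting is not given in the sources used here, reads could have been assigned to either gene.

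By TPM, CDC45 was the highest of the genes that activate the helicase, with 46.9, 49.5 and 48.4 TPM in replicates 1, 2 and 3 (48.3 ± 1.31, SD, n = 3). GINS3 was the lowest by TPM, with 16.4, 14.3 and 14.0 TPM (14.9 ± 1.26, SD, n = 3). The GINS complex contains 1 copy of each of its subunits. GINS1 had 19.0, 18.4 and 19.5 TPM. GINS2 had a mean of 37.6 TPM and GINS4 of 31.8 TPM, and no neighbours in the order of these levels overlapped. By mean coverage, however, GINS2 (225) was above CDC45 (219), and GINS1 (57.3) was below GINS3 (83.9). The log2 ratio of CDC45 to GINS1 was 1.30 ± 0.07 (SD, n = 3) by TPM.

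PCNA, the sliding clamp, had 205, 201 and 195 TPM in replicates 1, 2 and 3 (200.2 ± 4.68, SD, n = 3). The loader subunits that place it were lower. RFC2, RFC4 and RFC3 lay close together, with means of 70.4, 70.2 and 64.4 TPM. RFC1, the large subunit particular to this loader, was the lowest by TPM, with 33.6, 29.1 and 29.3 TPM (30.7 ± 2.50, SD, n = 3). PCNA was 6.52 times as high as RFC1 by mean TPM. By TPM, RFC4 varied least of the 40 genes, with 70.2, 70.1 and 70.2 TPM (70.2 ± 0.0611, SD, n = 3). RFC5 varied most, with 65.3, 51.6 and 51.3 TPM (56.1 ± 8.02, SD, n = 3). Under median-of-ratios scaling, which aligns the libraries by their typical gene, the log2 range of RFC4 rose from 0.002 to 0.083. The median of the 38 members averaging 10 TPM or more was then 0.075, and RFC5 remained the widest at 0.280.

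Among the polymerase genes, POLD1, the catalytic subunit of the lagging-strand polymerase, had 68.7, 72.9 and 69.0 TPM in replicates 1, 2 and 3 (70.2 ± 2.32, SD, n = 3). POLE, its leading-strand counterpart, had 39.8, 38.8 and 38.0 TPM (38.9 ± 0.906, SD, n = 3). POLD1 was the higher of the pair in each library by TPM, with a log2 ratio of 0.84 ± 0.06 (SD, n = 3), but coverage gave -0.92. POLA1 and POLA2 encode subunits of the polymerase that starts each strand with the primase. POLA1 had 58.1, 51.9 and 48.4 TPM and POLA2 had 56.6, 52.4 and 52.2 TPM. By TPM they could not be ordered, since POLA1 was higher in replicate 1 and lower in replicates 2 and 3, whereas coverage gave a log2 ratio of POLA1 to POLA2 of -3.47. Of the primase genes, PRIM1 had 28.2, 25.9 and 25.7 TPM and PRIM2 had 15.6, 13.9 and 14.3 TPM. PRIM1, the catalytic subunit, was 1.82 times as high as PRIM2 by mean TPM, with a log2 ratio of 0.82 ± 0.03 (SD, n = 3), and coverage gave a log2 ratio of 4.58. The deposited row of PRIM2 (GRCh38, chromosome 6, 57314805 to 57646852, plus strand) begins 93265 bp inside the RefSeq gene and so leaves out its first stretch. PRIM2 was 1 of 5 members with a row end more than 1000 bp from that of RefSeq. The shift was 7884 bp in RFC5, 5032 bp in ORC1, 3431 bp in RFC3 and 1964 bp in MCM8.

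The single-strand binding genes RPA1, RPA2 and RPA3 had means of 103, 82.9 and 41.1 TPM, so the smallest subunit was 2.52 times lower than the largest although the trimer holds them equally. RPA3 had 40.2, 41.5 and 41.4 TPM in replicates 1, 2 and 3, and RPA1 had 107, 101 and 102 TPM. By TPM, the summed level of these genes differed less between libraries than that of any other role group, from 227.1 to 227.7 TPM. The sums were not compared with median-of-ratios scaling. With it the log2 range rose from 0.093 to 0.161 for RPA2 and from 0.044 to 0.123 for RPA3, and fell from 0.083 to 0.039 for RPA1. The evenness of the sum was therefore shown on the TPM scale only. The single genes were less even by TPM than their sum, since RPA2, with 79.6, 85.0 and 84.2 TPM, was lowest in the replicate where RPA1 was highest. The RPA3 row overlaps the opposite-strand gene UMAD1 over 77972 bp, and UMAD1 had a mean of 9.99 TPM. FEN1, the flap nuclease, had 205, 195 and 191 TPM (197 ± 6.83, SD, n = 3). LIG1, the ligase that acts after it, had 37.3, 35.7 and 36.6 TPM (36.5 ± 0.796, SD, n = 3). FEN1 was 5.40 times as high as LIG1 and its libraries overlapped those of PCNA.

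Within libraries, 10 pairs of partner genes were compared by the log2 ratio of TPM + 1. In 9 pairs all 3 libraries gave the ratio the same sign. The largest were PCNA over RFC1 at 2.67 ± 0.09, FEN1 over LIG1 at 2.40 ± 0.04 and MCM8 over MCM9 at 1.81 ± 0.07 (SD, n = 3). The smallest was POLA1 over POLA2 at -0.03 ± 0.07 (SD, n = 3), with 2 of 3 libraries in its direction. When the signs were flipped in an exact two-sided permutation test, p was 0.25 in each of the 9 and 0.75 for POLA1 over POLA2, or 0.278 and 0.75 after Benjamini-Hochberg adjustment over 10 pairs. With 3 libraries this test cannot go below 0.25, so no pair could pass.

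**Figure D2:**
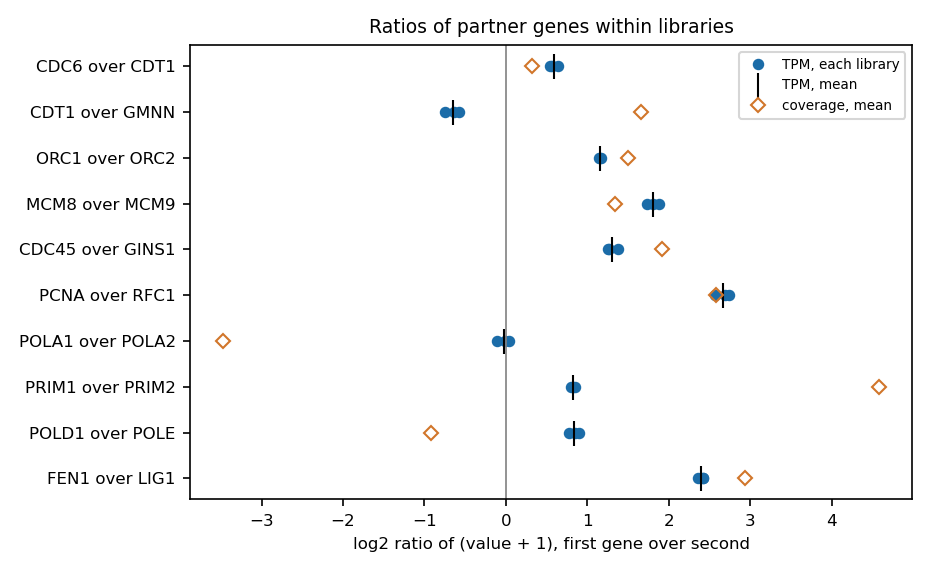
Log2 ratio of (value + 1) for 10 pairs of partner genes, with points for the 3 libraries by TPM, a bar for their mean and an open diamond for the mean by coverage. The TPM points of each pair lie close together, and the diamond falls on the other side of 0 for CDT1 over GMNN and POLD1 over POLE and farthest from the points for PRIM1 over PRIM2 and POLA1 over POLA2.

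The order of the levels by TPM and by coverage differed for most members, and by many places for a few. Neighbours within a role also changed places. By mean coverage ORC3 (110) was above ORC5 (83.4), MCM6 (347) above MCM5 (336) and RFC1 (182) above RFC5 (156). FPKM, to which TPM is proportional within a library, and coverage are both deposited for each gene, and their ratio compares these readings. Coverage per FPKM, relative to the highest in each library, had a median of 0.822 over the 40 genes and 0.792 over all genes averaging 10 TPM or more. It was at least 0.99 in 7 members, which include all 6 members with 1 RefSeq transcript (CDT1, FEN1, GINS2, MCM6, PRIM1 and RPA3) and 1 of the 34 with more. It was under 0.25 in 5 members, RFC3, POLA1, PRIM2, GMNN and POLD1, a limit chosen after the values were seen. Of all genes averaging 10 TPM or more, 13.1% were under this limit and 20.5% at or above 0.99, so the share of members at these ends was close to the background.

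RFC3 was the extreme. It ranked 15th of 40 by TPM and 39th by coverage, which was 8.06, 7.12 and 6.71 in replicates 1, 2 and 3, and the ratio was 0.0192, 0.0189 and 0.0189. RFC4, at 70.2 TPM beside 64.4 TPM for RFC3, had a mean coverage of 370 beside 7.30. The row of RFC3 spans 155878 bp and RefSeq lists 14 transcripts for it. POLA1 fell from 20th by TPM to 37th by coverage, and GMNN from 9th to 30th. These discrepancies were the same in the 3 libraries and do not show in the SD. A transcript-level value was not analysed here, and the level of these 5 genes relative to their partners is uncertain. The order of the other neighbours that changed places by coverage is uncertain as well.

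**Figure D3:**
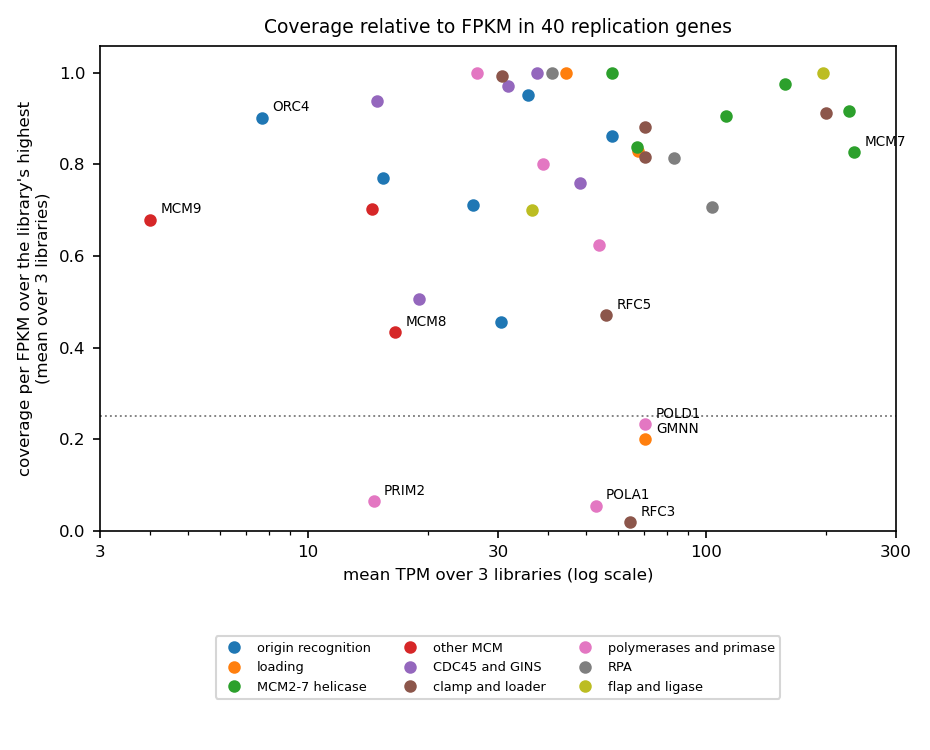
Coverage per FPKM relative to the highest in a library, averaged over 3 libraries, against mean TPM on a log axis, with 1 point for each of 40 replication genes colored by role and a dotted line at 0.25. RFC3, POLA1, PRIM2, GMNN and POLD1 lie under the line at mean TPM from 14.6 to 70.4, and most other members lie above 0.6.

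The replication genes varied little between replicates, and about as much as all genes at their level. The range of log2(TPM + 1) over the libraries was at most 0.34 in the 38 members averaging 10 TPM or more. So 0 of them exceeded 0.5, beside only 1.41% of the 8419 genes at this level. Their median coefficient of variation was 4.14%, beside 4.88% over all these genes. RFC5 had the widest range, followed by CDC6 at 0.28, POLA1 at 0.26 and ORC3 at 0.25. In RFC5 and CDC6, coverage per FPKM was lowest in the library where TPM was highest. For RFC5 it was 0.413 in replicate 1 and 0.511 and 0.491 in replicates 2 and 3. For CDC6 it was 0.778, 0.833 and 0.880 in replicates 1, 2 and 3. Once coverage was divided by the highest ratio in its library, the log2 range of RFC5 was 0.08 and that of CDC6 was 0.09, whereas ORC3 stayed at 0.24 and POLA1 at 0.22. MCM8 had its highest ratio, 0.456, in replicate 2, where its TPM was lowest, and a log2 range of 0.20 by TPM and 0.09 by scaled coverage. The opposite-strand gene WSB2, whose row overlaps RFC5 over 878 bp, had 48.9, 41.9 and 41.9 TPM. Like RFC5 it was highest in replicate 1, as were 62.5% of all genes averaging 10 TPM or more. The part of this overlap in the value of RFC5 was not tested.

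**Figure D4:**
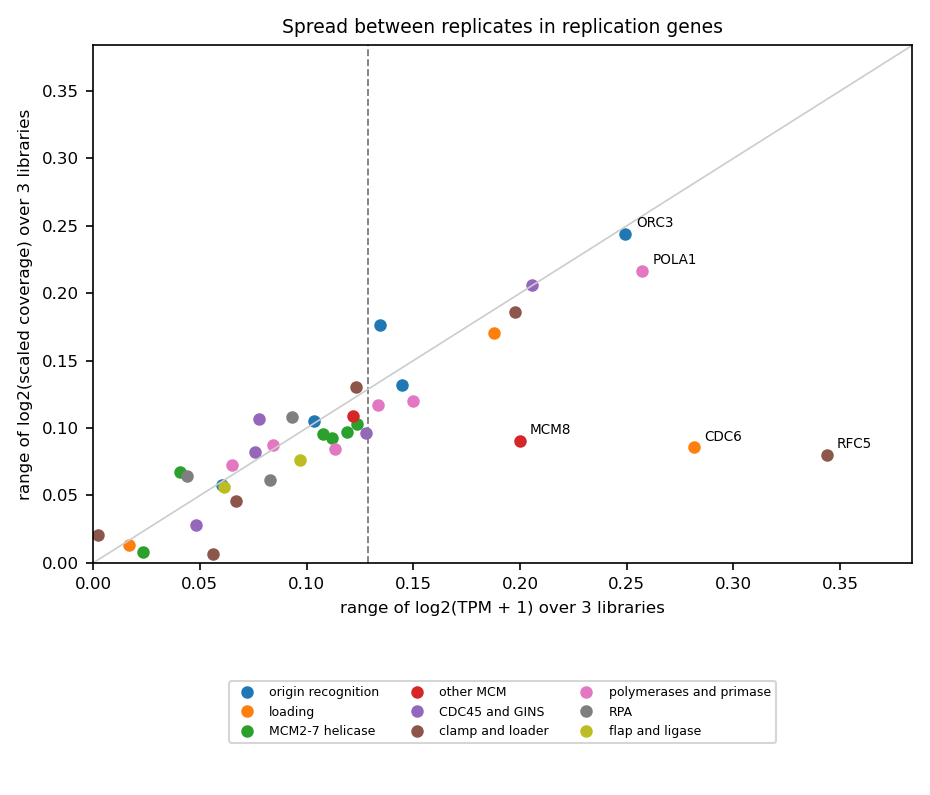
Range over 3 libraries of log2(TPM + 1) on the x axis and of log2 scaled coverage on the y axis for the 38 replication genes averaging 10 TPM or more, colored by role, with a diagonal for equal ranges and a dashed line at 0.13, the median range of all genes at this level. RFC5, CDC6 and MCM8 lie well below the diagonal, and ORC3 and POLA1 lie close to it.

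Most of the 38 members were highest in replicate 1. This held for 31 of them, beside 62.5% of all genes averaging 10 TPM or more, while 5 were highest in replicate 2 (20.3% of all these genes) and 2 in replicate 3 (17.1%). The median difference of replicate 1 from the mean of the others was 0.09 on the log2(TPM + 1) scale for members and 0.07 for all these genes, so the libraries were shifted over all genes in the same direction. With median-of-ratios scaling, which aligns the libraries by their typical gene, 19 members were highest in replicate 1, 8 in replicate 2 and 11 in replicate 3, beside 38.0%, 25.0% and 37.0% of all these genes. Replicate 1 also had the highest coverage per FPKM, and the part of depth in this shift was not tested. RPA2, RPA3, CDC45, MCM7 and POLD1 were the members highest in replicate 2, and GINS1 and RFC4 those in replicate 3.

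The other genes of the pathway showed similar levels. Of 7 kinases and firing factors, which turn a loaded helicase into a fork, 6 had at least 10 TPM in every library, from MTBP with 5.70 ± 0.189 TPM to TOPBP1 with 53.2 ± 3.68 TPM (SD, n = 3). Of 20 further fork factors, 17 did, from ATAD5, which helps unload PCNA, at 7.74 ± 0.926 TPM to POLD2, a partner of POLD1, at 175 ± 9.43 TPM (SD, n = 3). All 6 genes of nucleotide supply did, and RRM1, the large subunit of ribonucleotide reductase, was the highest of them at 179 ± 15.4 TPM (SD, n = 3). Together 29 of 33 reached 10 TPM in every library, beside 40.4% of protein-coding genes. The median of their mean TPM was 42.8, beside 50.5 for the 40 members.

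E2F recognition sequences were then sought in the promoters, since these genes are known as its targets. RefSeq promoters, 250 bases before to 50 after a start site, were found for 35 of the 40 members. MCM4, MCM5, RPA2, RPA3 and GINS4 were without one. TTTCCCGC, TTTCGCGC, TTTGCCGC or TTTGGCGC was present on either strand in a promoter of 18 of the 35 members, or 51.4%. The share was 3.99% of all 27305 genes with a promoter (3.31% of 35116 promoters), 5.40% of protein-coding genes and 7.41% of genes averaging 10 TPM or more. CCAAT, the box bound by NF-Y, was in 62.9% of the members, 39.7% of all genes and 44.2% of genes averaging 10 TPM or more. The CHR element of G2 genes, TTTGAA or TTCGAA, was in 1 member, MCM6. It was in 19.5% of all genes and 14.7% of genes averaging 10 TPM or more. E2F matches can overlap each other on opposite strands, as they do in MCM6. The median TPM was 53.3 in the 18 members with an E2F match and 35.6 in the 17 without, over ranges of 14.9 to 235 and 4.0 to 197 TPM that overlap widely. Members highest in TPM were on both sides, with MCM7, MCM2 and PCNA holding a match and FEN1 none. In 5 of the 18 members with a match, MCM2 among them, no match lay wholly before the start site. A match is a description of the letters and not a bound site.

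Matches are shown for 6 members where the match and 22 bases on each side lay upstream of both the RefSeq start and the deposited row. The POLA2 match also lay upstream of both, but its flank reached into the row, so it is not shown. Sequences are in GRCh38.p14 and 5′ to 3′ on the strand of the gene, with the match in capitals. The capital letters were those searched for, so their repeat across roles was set by the search.
CDT1, chr16:88803732-88803783, plus strand: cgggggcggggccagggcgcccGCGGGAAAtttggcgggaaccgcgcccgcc
MCM3, chr6:52284887-52284938, minus strand: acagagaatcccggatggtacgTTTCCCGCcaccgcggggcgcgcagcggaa
MCM6, chr2:135876562-135876617, minus strand: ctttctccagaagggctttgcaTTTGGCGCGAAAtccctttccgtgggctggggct
MCM6, chr2:135876500-135876555, minus strand: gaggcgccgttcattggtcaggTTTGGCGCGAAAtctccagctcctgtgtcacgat
GINS2, chr16:85688956-85689007, minus strand: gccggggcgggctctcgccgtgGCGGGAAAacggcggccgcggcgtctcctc
PCNA, chr20:5126652-5126703, minus strand: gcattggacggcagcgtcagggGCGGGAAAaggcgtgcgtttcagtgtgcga
POLA1, chrX:24693759-24693810, plus strand: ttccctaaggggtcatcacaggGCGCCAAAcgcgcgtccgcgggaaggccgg
The MCM6 promoter held the same 12 capital letters at both places, ending 141 and 79 bases before the start, each read as a match on both strands. In CDT1, GINS2 and PCNA the match was the reverse complement of TTTCCCGC and began 35, 31 and 59 bases before the start. The mean levels of these 6 genes ran from 37.6 TPM for GINS2 to 200.2 TPM for PCNA, with MCM6 at 58.0 TPM, so the same letters stood beside genes of different levels.

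Of the 40 rows, 18 overlapped another gene row by at least 1 bp, or 45.0%, beside 50.4% of all gene rows and 49.0% of genes averaging 10 TPM or more. In 7 of the 18 the other row averaged 10 TPM or more. Apart from MCM9 and RFC5, these were MCM2, MCM7, ORC3, GINS2 and RFC4. AP4M1 overlaps MCM7 over 528 bp and AKIRIN2 overlaps ORC3 over 2965 bp, while GSE1 shares 9 bp with GINS2 and EIF4A2 shares 6 bp with RFC4. AP4M1 had a mean of 11.1 TPM and AKIRIN2 of 20.3 TPM. The other 22 members shared no base with another row.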

How the data were processed

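Poly(A) RNA of 3 libraries labelled HepG2 was sequenced by the authors as paired-end reads. Per the labels, reads were filtered with FastQC 0.11.8 and Trim Galore 0.6.2 and mapped to GRCh38 with STAR 2.6.1a, and StringTie is named without a version. The annotation and strand setting are not given in the sources used here. Each library has its own table of genes. Coverage is deposited as a signal that is not scaled for library size. Deposited FPKM values are scaled for length and library size, and deposited TPM values to an equal total per library. No counts are given, so depth is unknown and precision is the SD over 3 libraries.

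Rows that agreed in symbol, strand and position in every table were kept, on assembled chromosomes only. TPM was used as deposited, with a pseudocount of 1 on the log2 scale. The 40 genes, the pathway and marker lists and the 10 pairs were chosen with earlier results of these data known. All 40 members are named, with values in every library for the highest and lowest of each role, for pairs, for members under 10 TPM and for members with a range above 0.5, of which there were 0. Values in every library for MCM2, MCM5, RFC4, RFC5 and other members outside this rule were added after they were seen. The range calculation was tested on simulated data. Alternatives were each replicate left out, FPKM or coverage in place of TPM, other scalings, pseudocounts, limits and backgrounds. Python 3.11.15, numpy 2.4.6, pandas 2.3.3, statsmodels 0.14.6 and matplotlib 3.10.9 were used.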

Additional observations from a re-analysis of the deposited data

How the results depend on the processing

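The number of members highest in replicate 1 and the limits on the coverage ratio, with their alternatives, were chosen after seeing the data. The median level of the 40 genes, 50.5 by TPM, was 24.1 by FPKM and 193 by coverage, which are other units, and 63.3 TPM without mitochondrially encoded genes, which raises every gene by 1 factor. The median percentile, 78.4, was 75.8 by FPKM, 81.2 by coverage, 79.3 without mitochondrially encoded genes, 84.1 among genes from 0.1 TPM, 92.4 among all rows and 75.1 among protein-coding genes. By coverage, the log2 ratio of CDT1 to GMNN reversed to 1.65 and that of POLD1 to POLE to -0.92, while POLA1 to POLA2 moved from -0.03 to -3.47 and PRIM1 to PRIM2 from 0.82 to 4.58, and the cause was not tested. With a replicate left out, POLA1 over POLA2 ranged from -0.061 to 0.011, with the positive value without replicate 3. Members highest in replicate 1 numbered 31, against 19 with median-of-ratios scaling. Members under the limit on the coverage ratio numbered 5, against 3 under 0.1 and 8 under 0.5. The number of members with at least 10 TPM stayed at 38 with each replicate left out, and 0 members had a range above 0.5 under any alternative run. No paired analysis was possible because there is 1 condition.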
